A study of Mus musculus with 46 samples.

Results

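A set of 8 genes that mark monocytes and other cells derived from bone marrow, *Ccr2* (Entrez 12772), *Ly6c2* (Entrez 100041546), *Lyz2* (Entrez 17105), *Clec12a* (Entrez 232413), *Klra2* (Entrez 16633), *Lilra5* (Entrez 232801), *Plac8* (Entrez 231507) and *Cd52* (Entrez 23833), were followed through all groups of a study of microglial depletion and repopulation in the mouse brain. They were taken by symbol with no cut on their values, as a set chosen with earlier results of these data known, and are 8 of the 21231 genes listed in the 3 expression tables of the study. All 8 have values in both tables of sorted cells, and 3 (*Lyz2*, *Cd52* and *Clec12a*) in the table of the subventricular zone (SVZ), where the other 5 are not listed. The question the samples address is whether cells that refill a depleted brain carry the transcripts of blood-derived cells.

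RNA was sequenced in 46 libraries from C57BL/6 mice that received vehicle or PLX3397, an inhibitor of the CSF1 receptor on which microglia depend, in chow at 600 ppm. SVZ tissue was micro-dissected whole from control mice, mice after 14 days of PLX3397 (14 day PLX3397) and mice after 14 days of PLX3397 and 5 days without it (5 day recovery), with 5 libraries per group. White matter (WM) repopulating cells came from brains that had 14 days of PLX3397 and 28 days of recovery, which the study sets apart from GLOBAL repopulating cells, from brains that had 7 days of PLX3397 and 28 days of recovery. In the WM experiment, control and WM repopulating brains were collected without lipopolysaccharide (LPS, 0 hr) or 6 or 24 hr after an intraperitoneal dose of 0.33 mg/kg, in 3, 5 and 4 control libraries and 4, 4 and 4 WM libraries. The GLOBAL experiment has 4 control and 3 repopulated libraries with no LPS. Mice were 2 months old in the sorted-cell experiments, and 1.5 months is the age that the methods give where nothing else is stated. The sorted cells were CD11b+CD45int cells from whole hemispheres, a gate below the CD45 level of most blood-derived leukocytes, though transcripts of such cells were present in the libraries. No group carries a lineage label, so these values are levels of transcripts and not a record of where cells came from.

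Monocytes are made in bone marrow from myeloid progenitors, leave it through CCR2 signaling, circulate in a Ly6C-high and a Ly6C-low form, and can enter injured tissue and become macrophages. Microglia are seeded in the embryo and renew themselves in the brain, but a sort on CD11b and CD45 can hold both, and macrophages of either source share genes for phagocytosis and lysosomes. LPS, a component of bacterial outer membranes that Toll-like receptor 4 detects, mobilizes monocytes from the marrow and also changes the transcripts of brain myeloid cells directly.

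Values are FPKM, fragments per kilobase of gene scaled to the mapped reads of a library, which can be compared between genes because they are per length. The libraries hold a median of 7.06 M (mega) reads in the WM experiment, 3.10 M in the GLOBAL experiment and 8.24 M in the SVZ experiment, as recovered from the steps of low values, so that 1 read adds 0.0471 to 0.227 FPKM for a 2 kb gene. The 3 tables were normalized separately, so tests were made within a table. The summed level of 11 microglia markers was 20331 to 23669 FPKM in control and 19240.5 to 22846 FPKM in WM repopulating libraries at 0 hr. Markers of blood cells were present beside them. The sum of 8 neutrophil markers was 1783 to 8709 and 2805 to 10582 FPKM in the same groups, and that of 8 T and NK cell markers 18.2 to 49.1 and 45.3 to 84.9 FPKM. The neutrophil sum reached 15265 FPKM in control at 24 hr after LPS, 10083 FPKM in WM repopulating cells at 6 hr and 22615 FPKM in GLOBAL control, above the highest microglia sums of these groups (13674, 8558 and 15463 FPKM). In the SVZ experiment, control replicate 1 held far more choroid plexus transcripts (sum of 5 markers 21314 FPKM) than the other 4 control libraries (24.3 to 126 FPKM). Leaving it out changed no call on *Lyz2*, *Cd52* or *Clec12a*.

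In sorted control cells without LPS the 8 genes spanned a wide range of levels. *Lyz2*, which encodes the lysozyme of macrophages, monocytes and neutrophils, was the highest at 1611 ± 669 FPKM (SD, n = 3) with 31 of the 12684 genes tested above it. *Cd52*, which encodes a small glycosylphosphatidylinositol-anchored surface glycoprotein of leukocytes, followed at 309.9 ± 94.8 FPKM (168 genes above it). *Plac8*, a gene of monocytes, granulocytes and other leukocytes, had 62.0 ± 41.7 FPKM. *Ly6c2*, the surface antigen by which inflammatory monocytes are sorted, had 41.7 ± 20.1 FPKM. *Lilra5*, an activating leukocyte immunoglobulin-like receptor, had 23.7 ± 1.42 FPKM and *Ccr2*, the chemokine receptor that brings monocytes out of the marrow, 22.9 ± 10.5 FPKM. *Clec12a*, an inhibitory C-type lectin receptor of granulocytes and monocytes, stood at 17.4 ± 10.2 FPKM, and *Klra2*, a member of the Ly49 family of lectin-like receptors, was the lowest at 4.30 ± 1.14 FPKM (8194 genes above it). *Lyz2*, *Cd52* and *Clec12a* stood clear of the gene below them in every library. From *Plac8* down to *Clec12a* the ranges of neighbors in this order overlapped, with *Plac8* at 35.5 to 110.1, *Ly6c2* at 18.5 to 54.5 and *Clec12a* at 11.3 to 29.2 FPKM. The control cells of the GLOBAL experiment, whose table was normalized separately, also had *Lyz2* (1833 ± 870.3 FPKM, n = 4) and *Cd52* (215 ± 109 FPKM) at the top and *Klra2* (4.78 ± 1.17 FPKM) at the bottom, while *Ly6c2* stood at 201 ± 122 FPKM. Thus transcripts of all 8 genes were measured in the sorted gate of brains that had never been depleted.

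In SVZ tissue, *Lyz2* and *Cd52* fell after 14 days of PLX3397 and rose again by 5 days of recovery, when all 7 pan-myeloid genes tested and 9 of 11 microglia markers were still below control. *Clec12a* did not pass the test in any SVZ comparison. *Lyz2* was at 10.1, 10.9, 12.3, 12.9 and 14.9 FPKM in the 5 control libraries. It was at 0.297, 0.316, 0.535, 1.10 and 2.06 FPKM at 14 day PLX3397 and at 5.28, 7.81, 8.79, 8.87 and 9.23 FPKM at 5 day recovery. Every recovery library thus lay above all depleted and below all control libraries, which was so for 2.11% and 1.97% of all genes tested. The change was -2.90 (SE 0.21, adjusted p = 6.77e-08) on the log2(FPKM + 1) scale from control to 14 day PLX3397, by limma with Benjamini-Hochberg adjustment over all 14151 genes tested. On this scale, which is used for all tests, the change of genes with low FPKM is understated. From 14 day PLX3397 to 5 day recovery *Lyz2* rose by 2.33 (SE 0.21, adjusted p = 1.46e-05). Against control the recovery libraries differed by -0.57 (95% interval -1.01 to -0.12, adjusted p = 0.210), which did not pass the threshold of 0.05.

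*Cd52* was at 1.66, 2.06, 2.61, 3.34 and 3.43 FPKM in control. It stood at 0, 0.221, 0.562, 0.579 and 0.722 FPKM at 14 day PLX3397 and at 1.51, 2.51, 3.32, 3.38 and 3.49 FPKM at 5 day recovery. All depleted libraries were below all others (below control in 1.92% of all genes), and the recovery libraries covered the range of control. The log2 change was -1.35 (SE 0.19, adjusted p = 0.000391) at 14 day PLX3397 and 1.44 (SE 0.19, adjusted p = 0.00167) from there to 5 day recovery. Recovery against control gave 0.08 (95% interval -0.33 to 0.49, adjusted p = 0.851). Only 5 to 16 reads per control library and 0 to 3 per depleted library lie behind these *Cd52* values, against 49 to 124 and 3 to 12 for *Lyz2*. A *Cd52* value of 0 is therefore below what this depth can show.

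*Clec12a* had 1.86, 4.11, 4.18, 5.10 and 5.21 FPKM in control, 2.21, 2.85, 3.18, 3.35 and 3.54 FPKM at 14 day PLX3397 and 1.53, 2.79, 3.09, 3.72 and 3.76 FPKM at 5 day recovery. These groups overlapped throughout. The log2 difference from control was -0.30 (95% interval -0.73 to 0.14, adjusted p = 0.990) at 14 day PLX3397 and -0.34 (95% interval -0.78 to 0.10, adjusted p = 0.407) at 5 day recovery. From 14 day PLX3397 to 5 day recovery it was -0.04 (95% interval -0.48 to 0.39, adjusted p = 0.936). *Clec12a* was counted with 41 to 81 reads per depleted library and 24 to 87 per control library.

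In counts, 2 of the 3 genes fell at 14 day PLX3397, where 1.26% of all genes tested passed the test and 1.21% fell. None of the 3 passed limma's test at 5 day recovery against control, where 1.27% of all genes did, and 1 (*Lyz2*) had an unadjusted p under 0.05, as 16.6% of all genes had. From 14 day PLX3397 to 5 day recovery 2 of 3 rose, where 0.325% of all genes passed and 0.290% rose. The comparisons share libraries, so the fall and the later rise are not independent of each other. In bulk tissue, and in pools of sorted cells, fewer cells of a type and less RNA per cell cannot be told apart.

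**Figure D1:**
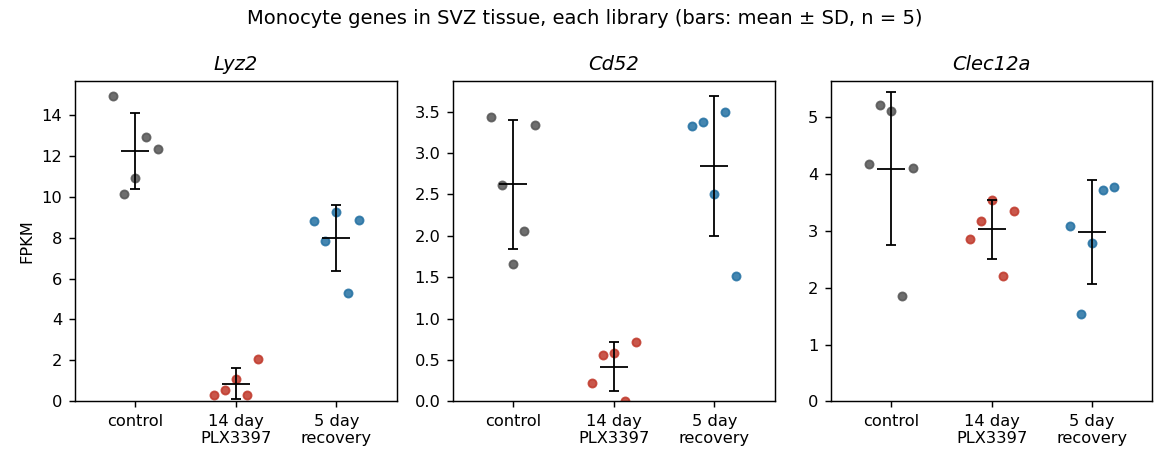
FPKM of *Lyz2*, *Cd52* and *Clec12a* in SVZ tissue, with a point for each of the 5 libraries per group (control, 14 day PLX3397, 5 day recovery) and bars at the mean ± SD. *Lyz2* fell from 10.1 to 14.9 FPKM in control to 0.297 to 2.06 FPKM and returned to 5.28 to 9.23 FPKM, *Cd52* returned to the control range, and the *Clec12a* groups overlap.

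Set against the control mean, *Lyz2* went from 7.05% ± 6.09 (SD, n = 5) at 14 day PLX3397 to 65.4% ± 13.1 at 5 day recovery and *Cd52* from 15.9% ± 11.3 to 109% ± 32.1. *Clec12a* was at 74.0% ± 12.7 and 72.8% ± 22.2. Genes shared by all myeloid cells were lower. *Tyrobp*, a signaling adaptor, reached 8.17% ± 1.95 of control at 5 day recovery, *Fcer1g*, the Fc receptor gamma chain, 9.70% ± 2.39, and *Csf1r*, the receptor that PLX3397 inhibits, 3.91% ± 1.39. *Ptprc*, which encodes CD45, lay in between at 43.8% ± 6.91. The microglial genes *P2ry12*, a purinergic receptor, and *Cx3cr1*, the fractalkine receptor, were at 1.95% ± 0.818 and 4.75% ± 2.19.

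**Figure D2:**
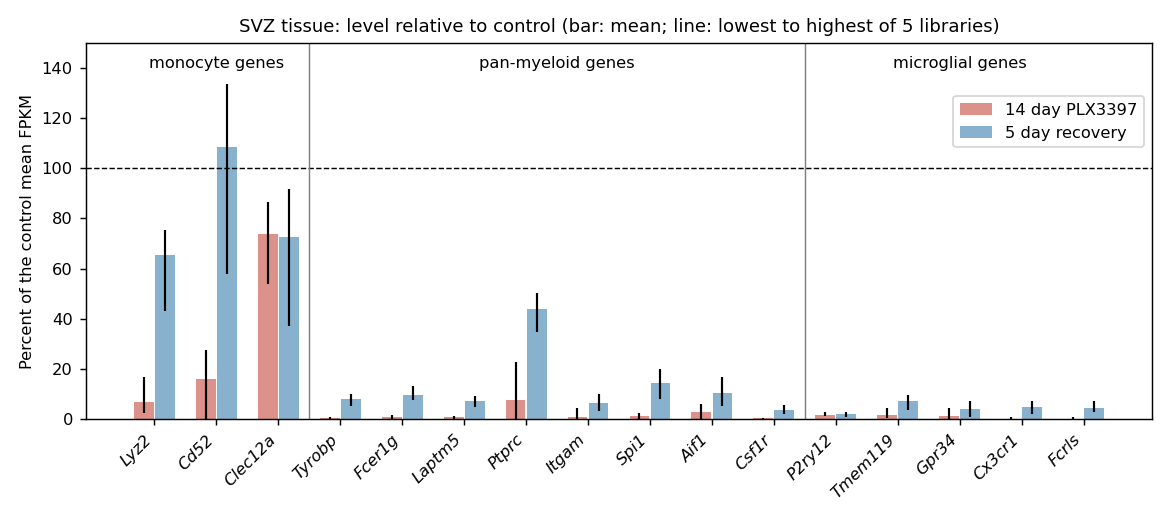
SVZ levels at 14 day PLX3397 and 5 day recovery as a percentage of the control mean, for *Lyz2*, *Cd52*, *Clec12a* and for genes of all myeloid cells and of microglia, with bars at the mean and lines from the lowest to the highest of the 5 libraries. At 5 day recovery *Lyz2* (65.4%) and *Cd52* (109%) stand well above *Tyrobp* (8.17%), *Csf1r* (3.91%) and *P2ry12* (1.95%).

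The ratio of these genes to the myeloid signal of the tissue was above control in both later groups, except for a depleted library with *Cd52* at 0. *Lyz2* FPKM was 4.72 to 8.85% of the summed FPKM of 8 pan-myeloid genes in control SVZ and 31.6 to 61.6% at 5 day recovery, with no overlap. At 14 day PLX3397 it was already 17.1 to 94.3%, so the ratio did not set the recovery group apart from the depleted one. *Cd52* went from 0.732 to 2.04% to 10.1 to 20.9% and *Clec12a* from 0.933 to 2.48% to 9.36 to 25.2% of that sum. At 14 day PLX3397 *Cd52* was at 0 to 66.4% and *Clec12a* alone came to 146 to 376% of it, where the sum itself was down to 0.846 to 2.19 FPKM from 168 to 227 FPKM. In sorted control cells at 0 hr, from a table normalized separately, *Lyz2* was 8.63 to 20.8%, *Cd52* 1.71 to 3.57% and *Clec12a* 0.0895 to 0.257% of the same sum.

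Erythrocyte transcripts moved with the recovery group. The sum of the hemoglobin and other erythrocyte markers was 32.4 to 79.3 FPKM in control, 41.8 to 57.9 FPKM at 14 day PLX3397 and 91.3 to 336 FPKM at 5 day recovery, where 3 of the 4 passed the test against control (*Hba-a1*, *Hba-a2* and *Hbb-bs*, with log2 fold changes of 1.30 to 1.74). The neutrophil genes with values there, *S100a8* and *S100a9*, summed to 0.558 to 3.17 FPKM in control, 0 to 4.22 FPKM at 14 day PLX3397 and 1.71 to 15.01 FPKM at 5 day recovery. Neither passed limma's test in any SVZ comparison (0 of 2), both had an unadjusted p under 0.05 at 5 day recovery against each other group, and the ranges overlapped. In the same order, *Ighm*, the heavy chain of IgM, ranged over 8.54 to 17.2, 2.98 to 3.91 and 6.31 to 12.5 FPKM. Their part in the *Lyz2* and *Cd52* levels was not tested. *Ccl12*, a mouse ligand of CCR2 and the only one of the 4 ligands of the list with values in SVZ, was at 0 in all depleted libraries and rose from 14 day PLX3397 to 5 day recovery (log2 fold change 1.38, adjusted p = 0.00238 by limma). Of 22 other monocyte genes, 13 have values in the SVZ table, 10 were tested, and 0 passed limma's test in any of the 3 comparisons, with 2 to 3 at an unadjusted p under 0.05 in each. Their median log2 fold change from 14 day PLX3397 to 5 day recovery was -0.12, beside -0.01 for all genes.

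In sorted cells at 0 hr, none of the 8 genes differed between WM repopulating cells and control cells by limma, in a comparison where 1.21% of the 12684 genes tested passed. *Cd52* came closest. It was at 216, 308 and 406 FPKM in the 3 control libraries and at 437, 480.2, 494 and 546 FPKM in the 4 WM libraries. All WM libraries were higher than all control libraries, as was so for 7.61% of all genes tested. The log2 difference was 0.70 (95% interval 0.29 to 1.11, adjusted p = 0.0989), and *Cd52* was the only one of the 8 with an unadjusted p under 0.05, as 11.9% of all genes had. Without control replicate 1 it was 0.92 and passed the test (adjusted p = 0.0447), and without control replicate 2 it was 0.46.

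The receptor and marker genes of inflammatory monocytes overlapped between these groups. *Ccr2* was at 16.02, 17.7 and 35.0 FPKM in control and at 12.9, 22.7, 23.6 and 28.4 FPKM in WM repopulating cells. *Ly6c2* was at 18.5, 52.2 and 54.5 FPKM and 29.96, 46.7, 53.0 and 109.9 FPKM. In both genes the groups overlapped, and the highest *Ccr2* library was a control and the highest *Ly6c2* library a WM one. Their log2 differences were -0.03 (95% interval -0.85 to 0.79, adjusted p = 0.987) for *Ccr2* and 0.50 (95% interval -0.58 to 1.58, adjusted p = 0.769) for *Ly6c2*. With a library left out, that of *Ly6c2* ranged over 0.00572 to 0.77.

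The other 5 genes also overlapped. *Lyz2* was at 1089.6, 1377 and 2365 FPKM in control and 1505, 1882, 2092 and 2698 FPKM in WM repopulating cells. *Plac8* was at 35.5, 40.5 and 110.1 FPKM and 35.5, 39.1, 64.3 and 68.1 FPKM. Control replicate 1 was the highest control library for both. The log2 differences were 0.39 (-0.22 to 0.996) for *Lyz2*, -0.12 (-1.04 to 0.79) for *Plac8*, -0.09 (-0.96 to 0.78) for *Clec12a*, 0.40 (-0.58 to 1.39) for *Klra2* and 0.10 (-0.49 to 0.69) for *Lilra5*, with 95% intervals in parentheses. The receptors *Clec12a*, *Klra2* and *Lilra5* ranged over 11.3 to 29.2, 3.16 to 5.44 and 22.2 to 25.04 FPKM in control and over 7.80 to 21.7, 3.54 to 9.54 and 21.99 to 28.7 FPKM in WM repopulating cells. The median log2 difference of the 8 genes was 0.24, beside 0.01 for all genes, with 5 higher and 3 lower in value. This count rests on control replicate 1, without which *Ccr2*, *Clec12a* and *Plac8* were at 0.31, 0.34 and 0.38 and all 8 were higher. Markers of other cells also differed in level between these groups. The sum of 5 choroid plexus markers was 280.1 to 716 FPKM in WM repopulating and 74.1 to 217 FPKM in control libraries, and that of the B cell markers 296 to 358 and 396 to 546 FPKM, neither with overlap. Of 3 B cell markers tested *Cd79b*, a B cell receptor subunit, passed limma's test and was lower, while *Cd79a*, its partner, was higher at an unadjusted p under 0.05 and did not pass. The sum of 8 border-associated macrophage markers was 65.5 to 94.6 FPKM in WM repopulating and 109 to 173 FPKM in control cells, with 4 of 7 tested lower at an unadjusted p under 0.05 and 1 (*Cd209f*, a lectin) passing. Of 8 T and NK cell markers 6 were higher at an unadjusted p under 0.05 and 1 passed the test (*Cd3d*, a T cell receptor subunit). The part of these cells in the values of the 8 genes was not tested.

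**Figure D3:**
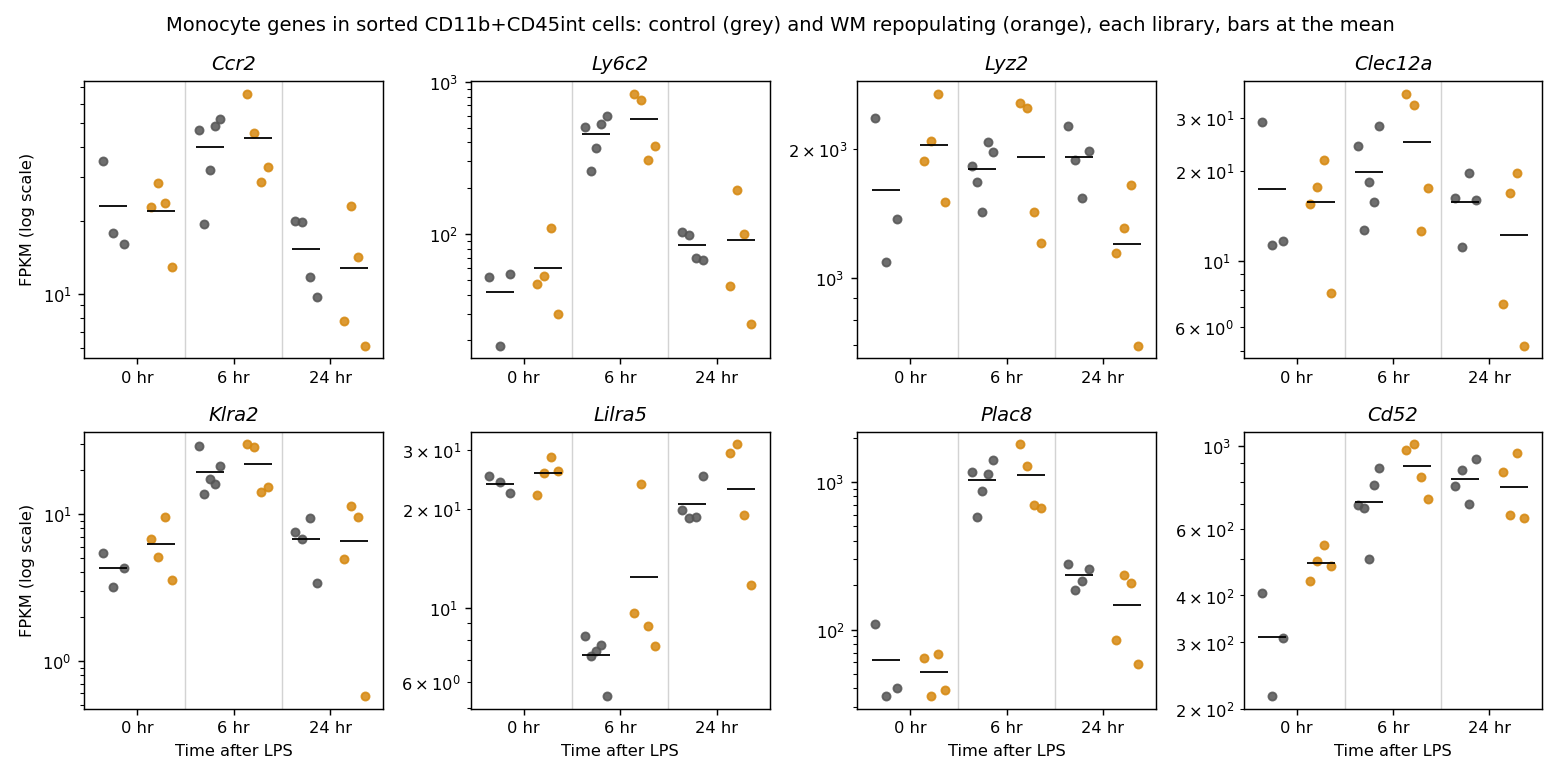
FPKM of the 8 monocyte genes in sorted CD11b+CD45int cells of control and WM repopulating brains at 0, 6 and 24 hr after LPS (log axis), with a point per library (n = 3, 5 and 4 control, 4 at each time WM). Control and WM points overlap in every panel and time except for *Cd52* at 0 hr (216 to 406 against 437 to 546 FPKM), while *Plac8* and *Ly6c2* are highest at 6 hr in both.

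After LPS, too, none of the 8 genes passed the test between WM repopulating and control cells. At 6 hr, 0 of 8 passed limma's test, beside 0.323% of all genes, and 1 (*Lilra5*) had an unadjusted p under 0.05 (9.18% of all genes), with a log2 difference of 0.59 (95% interval 0.07 to 1.10, adjusted p = 0.448), which was 0.25 without WM 6 hr replicate 2. All 8 were higher in value in WM repopulating cells at 6 hr, with a median of 0.19 on the log2 scale beside 0.00 for all genes. Without WM 6 hr replicate 1 or 2 or control 6 hr replicate 2 or 3, between 1 and 4 of the 8 fell below 0. At 24 hr, 0 of 8 passed, beside 3.97% of all genes, and 2 had an unadjusted p under 0.05, as 17.6% of all genes had. *Lyz2* was at 1537, 1886, 1981 and 2264 FPKM in control and at 697, 1144, 1308 and 1654 FPKM in WM repopulating cells, a log2 difference of -0.73 (95% interval -1.29 to -0.17, adjusted p = 0.140). *Plac8* was at 185, 212, 257 and 279.7 FPKM and 58.8, 85.8, 208 and 236 FPKM, a log2 difference of -0.87 (95% interval -1.72 to -0.02, adjusted p = 0.267), which was -0.51 without WM 24 hr replicate 4. In both genes the lowest libraries were WM repopulating ones, but the groups overlapped. Of the 8 genes, 1 (*Lilra5*) was higher and 7 lower in value at 24 hr, with a median of -0.34 beside 0.02 for all genes. Without WM 24 hr replicate 4 *Ly6c2* (0.20) and *Klra2* (0.31) were above 0, and without replicate 1 or 2 *Lilra5* was below 0. Of the 8 neutrophil markers 1 passed limma's test in this comparison (*Cxcr2*, a chemokine receptor, log2 difference -1.42, adjusted p = 0.0497), and 4 were lower at an unadjusted p under 0.05. *S100a8* did not pass and was at 4105 to 10186 FPKM in control and 2061 to 4179 FPKM in WM repopulating cells at 24 hr. The sum of the border-associated macrophage markers was 99.8 to 132 FPKM in control and 80.2 to 94.3 FPKM in WM repopulating cells. The part of these transcripts in the *Lyz2* and *Plac8* differences was not tested.

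Other genes linked to blood-derived cells were compared from fixed lists. Of 22 other monocyte genes, 0, 0 and 1 passed limma's test for WM repopulating cells against control at 0, 6 and 24 hr, the 1 being *Fn1*, fibronectin (log2 fold change 1.86, adjusted p = 0.00178). Of all genes tested, 1.21%, 0.323% and 3.97% passed. By unadjusted p under 0.05 in limma, 2, 1 and 7 of the 22 did, beside 11.9%, 9.18% and 17.6% of all genes. Of the 7 at 24 hr, 6 were lower in WM repopulating cells. The median log2 differences of the 22 genes were 0.36, -0.15 and -0.62. Of 10 genes ascribed to bone marrow-derived macrophages that have engrafted the brain, 1, 2 and 3 were higher and 0 lower. These were *Axl*, a receptor tyrosine kinase for apoptotic cells, at all 3 times (log2 fold changes 2.31, 1.41 and 2.68), *Apoe*, apolipoprotein E, at 6 and 24 hr (1.24 and 1.83), and *Fn1* at 24 hr. *Axl* and *Apoe* are also expressed by activated microglia. *Ms4a7*, *Cd38* and *Tgfbi* of the same list did not pass at any time. By unadjusted p under 0.05 in limma, 3 genes of this list were higher at each time, and 1, 0 and 1 were lower. Of the 4 CCR2 ligands, 1 was higher and 2 lower by that measure at 0 hr, 0 differed at 6 hr, and 1 was higher and 1 lower at 24 hr. Of 10 progenitor genes, 9 were tested and only *Cd34*, a sialomucin of progenitors and endothelium, passed, at all 3 times (0.96, 1.18 and 0.57). *Pecam1*, the other marker of endothelium with a call, was lower in WM repopulating cells at 0 and 24 hr, and the sum of 4 endothelial markers at 0 hr was smaller (2.74 to 5.36 against 8.40 to 12.9 FPKM).

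LPS changed most of these genes within 6 hr. At that time in sorted control cells 5 of 8 passed the test, in a comparison where 42.5% of all genes did, with 4 higher (21.4% of all genes) and 1 lower (21.1%). *Plac8* rose from 35.5, 40.5 and 110.1 FPKM to 581, 869.6, 1129, 1161 and 1415 FPKM. *Ly6c2* rose from 18.5, 52.2 and 54.5 FPKM to 261, 367, 507, 529 and 594 FPKM. Every 6 hr library exceeded every 0 hr library in both, as in 19.5% of all genes. The mean rose 16.6-fold for *Plac8*, a log2 change of 4.16 (SE 0.42, adjusted p = 3.82e-08), and 10.8-fold for *Ly6c2*, a log2 change of 3.49 (SE 0.50, adjusted p = 5.11e-06). *Klra2* rose from 3.16, 4.30 and 5.44 FPKM to 13.7, 16.04, 17.3, 21.1 and 29.0 FPKM, a log2 change of 1.92 (SE 0.46, adjusted p = 0.00153). *Cd52* rose to 501, 683, 695, 786 and 874 FPKM, a log2 change of 1.21 (SE 0.19, adjusted p = 1.78e-05). These libraries, too, were all above those at 0 hr. *Lilra5* went the other way, from 22.2, 23.96 and 25.04 FPKM to 5.43, 7.20, 7.43, 7.73 and 8.25 FPKM, a log2 change of -1.60 (SE 0.27, adjusted p = 4.56e-05), again with no overlap (18.6% of all genes were lower in this way).

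Not all 8 followed. *Ccr2* was at 19.3, 32.3, 47.1, 48.9 and 52.2 FPKM at 6 hr in control, with a log2 difference of 0.78 (95% interval -0.01 to 1.56, adjusted p = 0.105) that passed the test without control 0 hr replicate 1 (adjusted p = 0.0416) or without control 6 hr replicate 2 (adjusted p = 0.0316). *Lyz2*, the highest of the 8, differed by 0.22 (95% interval -0.36 to 0.80, adjusted p = 0.550) and *Clec12a* by 0.26 (95% interval -0.57 to 1.09, adjusted p = 0.636). The median log2 change of the 8 genes was 0.99, beside 0.01 for all genes.

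In WM repopulating cells at 6 hr, 6 of 8 passed the test, 5 higher and 1 lower, where 38.8% of all genes passed, 19.3% higher and 19.5% lower. *Plac8* went from 35.5, 39.1, 64.3 and 68.1 FPKM to 672, 695, 1285 and 1801 FPKM, a log2 change of 4.33 (SE 0.41, adjusted p = 1.58e-08). *Ly6c2* went from 29.96, 46.7, 53.0 and 109.9 FPKM to 306, 378, 763 and 838 FPKM, a log2 change of 3.26 (SE 0.48, adjusted p = 1.01e-05). *Klra2* went from 3.54, 5.12, 6.76 and 9.54 FPKM to 14.2, 15.3, 28.7 and 29.8 FPKM, a log2 change of 1.66 (SE 0.44, adjusted p = 0.00450). In all 3 genes the 6 hr libraries lay above all 0 hr libraries, as in 19.5% of all genes. *Cd52* rose to 723, 823, 974 and 1009 FPKM, a log2 change of 0.84 (SE 0.18, adjusted p = 0.000841). *Ccr2* rose from 12.9, 22.7, 23.6 and 28.4 FPKM to 28.7, 33.1, 45.5 and 66.0 FPKM, a log2 change of 0.93 (SE 0.37, adjusted p = 0.0482), with no overlap but a p close to the threshold. It no longer passed without any 1 of 12 of the 24 libraries of the fit (WM 0 hr replicates 1, 3 and 4, WM 6 hr replicates 1 and 2, WM 24 hr replicate 3, control 0 hr replicate 2, control 6 hr replicates 1, 3 and 4, and control 24 hr replicates 2 and 3), with adjusted p of 0.0505 to 0.166. These are libraries of every group and time, since all share the estimate of the spread. *Lilra5* fell from 21.99, 25.7, 25.9 and 28.7 FPKM to 7.72, 8.83, 9.66 and 23.6 FPKM, a log2 change of -1.11 (SE 0.26, adjusted p = 0.00169). WM 6 hr replicate 2, at 23.6 FPKM, stood far above the other 3, and without it the log2 change was -1.45.

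**Figure D4:**
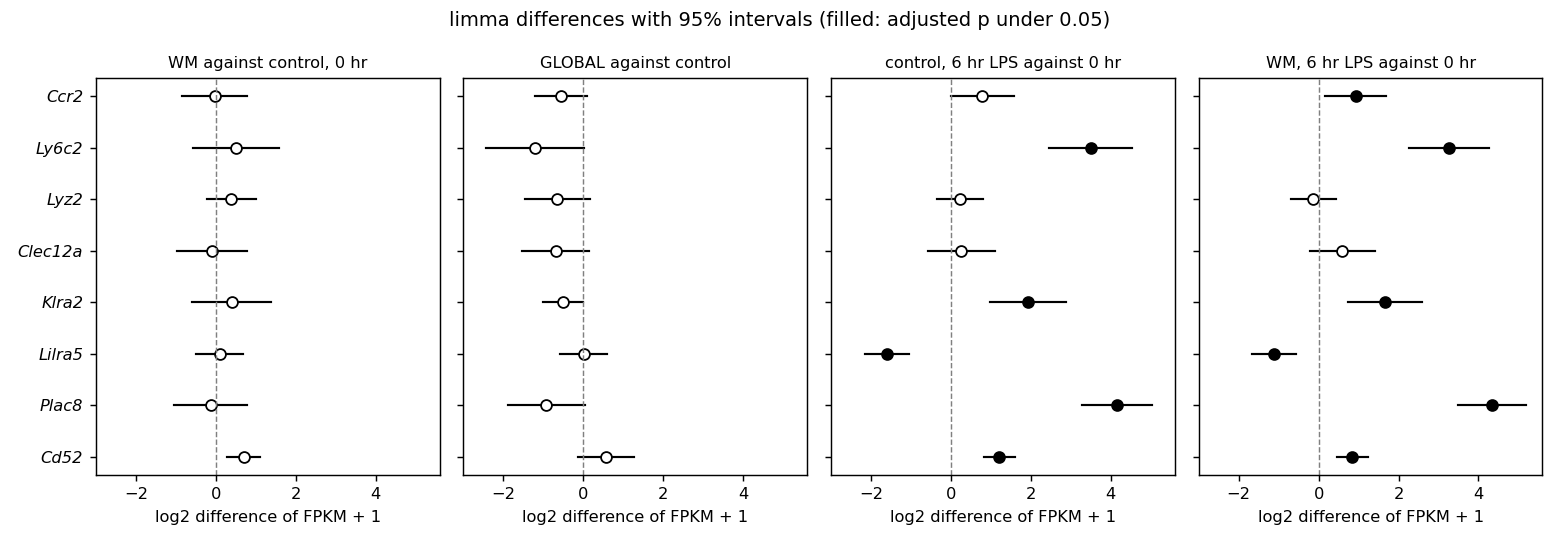
Log2 fold changes of the 8 monocyte genes with 95% intervals, on the log2(FPKM + 1) scale, in 4 comparisons (WM repopulating against control at 0 hr, GLOBAL repopulating against control, and 6 hr after LPS against 0 hr in control and in WM repopulating cells). After LPS *Plac8* (4.16 and 4.33) and *Ly6c2* (3.49 and 3.26) lie far to the right and *Lilra5* (-1.60 and -1.11) to the left, while the intervals of 7 of the 8 genes in each repopulation panel include 0.

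The promoters of the 3 genes with the largest rises, and of *Lilra5*, which fell, are shown so that the genes that moved together and the one that did not can be compared. Each sequence is the 250 bases before a RefSeq transcript start (GRCm38.p6), on the strand of the gene, and where a gene has 2 entries (*Plac8*, *Ly6c2*) the one further upstream is shown. *Plac8* is read from chr5:100572206-100572455, *Ly6c2* from chr15:75111972-75112221, *Klra2* from chr6:131247363-131247612 and *Lilra5* from chr7:4237504-4237753. Capitals mark matches on either strand to GAGGAA, the core letters bound by the myeloid factor PU.1, to TTGCNNAA, letters bound by C/EBP factors, or to the letters of 2 further motifs, GAAANNGAA and GGGANTTTC.
Plac8: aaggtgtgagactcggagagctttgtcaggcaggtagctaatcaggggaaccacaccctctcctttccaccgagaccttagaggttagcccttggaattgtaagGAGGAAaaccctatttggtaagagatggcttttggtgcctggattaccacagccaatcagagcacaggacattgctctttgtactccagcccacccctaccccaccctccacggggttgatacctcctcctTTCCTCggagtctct
Ly6c2: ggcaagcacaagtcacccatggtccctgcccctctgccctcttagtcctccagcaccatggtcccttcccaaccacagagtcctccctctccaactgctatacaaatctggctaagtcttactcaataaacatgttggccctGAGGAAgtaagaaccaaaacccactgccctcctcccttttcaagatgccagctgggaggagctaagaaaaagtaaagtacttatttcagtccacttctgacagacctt
Klra2: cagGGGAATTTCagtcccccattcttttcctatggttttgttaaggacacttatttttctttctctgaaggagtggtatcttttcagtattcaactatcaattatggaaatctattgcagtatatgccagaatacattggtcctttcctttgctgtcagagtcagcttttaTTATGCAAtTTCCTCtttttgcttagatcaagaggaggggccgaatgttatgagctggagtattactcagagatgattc
Lilra5: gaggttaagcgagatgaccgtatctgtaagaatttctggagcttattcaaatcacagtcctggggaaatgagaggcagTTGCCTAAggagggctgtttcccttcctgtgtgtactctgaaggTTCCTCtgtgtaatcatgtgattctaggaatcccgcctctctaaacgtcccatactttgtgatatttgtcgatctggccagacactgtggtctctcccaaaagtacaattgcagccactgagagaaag
Each of the 4 holds a GAGGAA match, as 23.25% of 32851 mouse promoters of this length do. In the sequences shown, *Plac8* has 2, beginning 146 and 15 bases before the start, *Ly6c2* 1 at 108 bases, *Klra2* 1 at 70 bases and *Lilra5* 1 at 128 bases. The *Ly6c2* site shown lies 142 bases before the other *Ly6c2* start. Outside the sequences shown, GAGGAA matched 8 bases before that other start and in *Clec12a* (61 and 47 bases). TTGCNNAA was found in *Klra2* (79 bases before the start), *Lilra5* (172 bases), *Clec12a* (140 bases) and at the other *Plac8* start (12 bases), and in 9.564% of all promoters. GAAANNGAA, letters of interferon response elements, was found in *Ccr2* (86 bases before the start) and in 7.129% of all promoters, and GGGANTTTC, letters of NF-κB sites, in *Klra2* (247 bases) and in 0.9406%. Both were first searched with 1 more letter at the 3′ end, an A and a C, and in that form matched in none of the 7 genes with an entry. The gene that fell thus held the same letters as genes that rose. A match is a description of the sequence and not a measured site. *Cd52* has no entry.

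Other genes moved along at 6 hr. Of the 22 other monocyte genes 18 were higher and 0 lower in control cells and 16 higher and 0 lower in WM repopulating cells, among them *Vcan*, versican (log2 fold changes 2.85 and 2.35). Of all genes tested, 21.4% and 19.3% were higher and 21.1% and 19.5% lower. The median of the list was 2.12 and 1.80, beside 0.01 and 0.00 for all genes. The CCR2 ligands *Ccl2*, *Ccl7* and *Ccl12* were higher at both times in both kinds of cells, *Ccl12* by 3.36 and 3.08 at 6 hr. *Ccl8*, the remaining ligand of the list, fell in control at 6 hr (-1.39, adjusted p = 0.0347 by limma) and did not pass in the other 3 comparisons with 0 hr. Of 11 microglia markers 10 were lower in control and 9 in WM repopulating cells at 6 hr, with *P2ry12* at -3.45 and -2.71. None of the 8 neutrophil markers was higher at 6 hr by limma (0 in either, also at an unadjusted p under 0.05), and *Ly6g* fell (-2.60 and -3.02). It was the 1 marker that fell in control and 1 of 5 that fell in WM repopulating cells. Their summed level at 6 hr was 894 to 5677 FPKM in control and 432, 696, 825 and 10083 FPKM in WM repopulating cells. The WM library at 10083 FPKM, replicate 1, was also the highest of its group in *Ccr2*, *Ly6c2*, *Plac8*, *Klra2*, *Clec12a* and *Lyz2*. In *Cd52* and *Lilra5* replicate 2 was the highest. The control library at 5677 FPKM, replicate 2, was the lowest of its group in *Ccr2*, *Ly6c2*, *Plac8*, *Klra2* and *Clec12a*. The sum of the B cell markers was 35.4 to 59.9 FPKM in control and 24.99 to 40.4 FPKM in WM repopulating cells at 6 hr, below all 0 hr libraries, and *Ighm* fell by 3.59 and 3.55 on the log2 scale. That of the T and NK cell markers was 52.0 to 215 FPKM in control at 6 hr, above all 0 hr libraries, and 79.2 to 199.7 FPKM in WM repopulating cells, with *Gzma*, a granzyme of cytotoxic cells, passing the test as higher in both. By unadjusted p under 0.05, 3 of these 8 markers were higher and 1 lower in control, and 2 were higher and 3 lower in WM repopulating cells, where *Klrb1c* also passed the test as higher and *Cd3d* and *Cd3g* as lower. The part of these cells in the rise of the monocyte genes was not tested.

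At 24 hr *Plac8* and *Cd52* were still above 0 hr in control cells. They were the 2 of 8 that passed the test, where 21.3% of all genes did and 12.1% were higher. *Plac8* was at 185, 212, 257 and 279.7 FPKM, a log2 change of 2.07 (SE 0.44, adjusted p = 0.00160) against 0 hr, and *Cd52* at 699.6, 783, 862 and 920.2 FPKM, a log2 change of 1.43 (SE 0.20, adjusted p = 1.70e-05), both with no overlap with 0 hr (above it in 15.8% of all genes). *Ly6c2*, at 67.7, 70.0, 98.8 and 103 FPKM, also lay above all 0 hr libraries but did not pass, with a log2 difference of 1.13 (95% interval 0.05 to 2.21, adjusted p = 0.131), or 0.64 without control 0 hr replicate 2. *Lilra5* was back at 18.7, 18.9, 19.8 and 25.01 FPKM, a log2 difference of -0.20 (95% interval -0.79 to 0.38, adjusted p = 0.659). The others, *Ccr2*, *Klra2*, *Lyz2* and *Clec12a*, had log2 differences of -0.53 (-1.35 to 0.29), 0.51 (-0.48 to 1.49), 0.32 (-0.29 to 0.92) and -0.03 (-0.90 to 0.85). With a library left out, those of *Ccr2*, *Klra2* and *Lyz2* ranged over -0.73 to -0.19, 0.34 to 0.76 and 0.07 to 0.63. Of the 22 other monocyte genes 11 were higher and 0 lower in control at 24 hr, and their sum was 1086 to 1705 FPKM, against 223 to 619 FPKM at 0 hr. Of 8 neutrophil markers 1 was higher (*Cxcr2*), and 9 of 11 microglia markers were lower. The B cell sum was 144 to 237 FPKM, against 396 to 546 FPKM at 0 hr. The choroid plexus sum was 35.5 to 52.0 FPKM, against 74.1 to 217 FPKM. The part of these cells in the *Plac8* and *Cd52* levels was not tested.

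In WM repopulating cells at 24 hr, 3 of 8 passed, 2 higher and 1 lower, beside 18.8% of all genes (10.5% higher and 8.29% lower), and each of these calls depended on single libraries. *Cd52* was at 641, 656, 849 and 954 FPKM, a log2 change of 0.65 (SE 0.18, adjusted p = 0.0156), above all 0 hr libraries as in 13.2% of all genes, and did not pass without WM 24 hr replicate 3 (adjusted p = 0.0677). *Plac8* was at 58.8, 85.8, 208 and 236 FPKM, a log2 change of 1.32 (SE 0.41, adjusted p = 0.0254), and did not pass without WM 0 hr replicate 2 or 4 or WM 24 hr replicate 2 or 3, with adjusted p of 0.0718 to 0.105. *Lyz2* fell to 697, 1144, 1308 and 1654 FPKM, a log2 change of -0.80 (SE 0.27, adjusted p = 0.0401), and did not pass without WM 0 hr replicate 1, 2 or 3 or WM 24 hr replicate 1 or 4, with adjusted p of 0.0620 to 0.168. *Ccr2* was at 6.17, 7.78, 14.2 and 22.9 FPKM, a log2 difference of -0.85 (95% interval -1.61 to -0.08, adjusted p = 0.116), and passed without WM 24 hr replicate 2 (adjusted p = 0.0313). *Ly6c2* ranged over 25.5 to 195 FPKM and *Klra2* over 0.574 to 11.3 FPKM, with the highest and lowest libraries further apart, as a ratio, than in any other group of this experiment. The choroid plexus sum was 10.6 to 32.2 FPKM, against 280 to 716 FPKM at 0 hr. The B cell sum was 54.3 to 134 FPKM, against 296 to 358 FPKM. By unadjusted p under 0.05 in limma, 10 of 11 microglia markers were lower and 6 of 22 other monocyte genes higher. Of 8 neutrophil markers 1 was higher and 1 lower. The part of these cells in the values of the 8 genes was not tested.

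Whether WM repopulating cells and control cells responded differently to LPS was tested as an interaction. At 6 hr 0 of 8 genes passed limma's test and 0 had an unadjusted p under 0.05, beside 0.0237% of all genes passing. At 24 hr 0 of 8 passed, beside 0.0867%, and 2 had an unadjusted p under 0.05, as 8.71% of all genes had. These were *Lyz2*, a log2 difference of -1.12 (95% interval -1.94 to -0.29, adjusted p = 0.363), and *Cd52*, a log2 difference of -0.79 (95% interval -1.35 to -0.22, adjusted p = 0.333). All 8 differences at 24 hr were below 0 in value (*Lilra5* at up to 0.23 with a library left out), with a median of -0.74 beside 0.01 for all genes. *Plac8* and *Ly6c2* had 6 hr differences of 0.17 (-1.05 to 1.39) and -0.23 (-1.67 to 1.21), intervals that reach more than 1 on the log2 scale either way. The responses in the 2 kinds of cells share no libraries, but each interaction rests on the same 0 hr libraries as the 0 hr comparison.

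In GLOBAL repopulating cells none of the 8 genes passed limma's test against control. None of the 16651 genes tested did (0% called, with 1504 genes at an unadjusted p under 0.05), so the comparison as a whole gave no call. *Ly6c2* was at 68.4, 159, 219 and 359 FPKM in the 4 control libraries and at 30.6, 98.0 and 133 FPKM in the 3 repopulated ones, a log2 difference of -1.20 (95% interval -2.43 to 0.02, adjusted p = 0.557). *Plac8* was at 23.96, 68.4, 90.1 and 99.9 FPKM and 23.2, 28.1 and 50.9 FPKM, a difference of -0.93 (95% interval -1.89 to 0.03, adjusted p = 0.557). *Ccr2* was at 7.69, 15.3, 17.1 and 21.7 FPKM and 7.64, 9.64 and 11.7 FPKM, a difference of -0.56 (95% interval -1.20 to 0.08, adjusted p = 0.592). In these 3 genes the highest libraries were controls, but control replicate 4 lay within the range of the repopulated ones. *Klra2* was at 3.38, 4.69, 4.81 and 6.24 FPKM and 2.56, 2.66 and 3.91 FPKM, a difference of -0.51 (95% interval -1.01 to -0.01, adjusted p = 0.547), the only one of the 8 with an unadjusted p under 0.05 (9.03% of all genes). *Lyz2* and *Clec12a* differed by -0.65 (-1.46 to 0.16) and -0.69 (-1.52 to 0.14). *Cd52* and *Lilra5* did not lie lower, with 0.56 (-0.14 to 1.26) and 0.00 (-0.59 to 0.59). The repopulated *Cd52* values, 255, 306 and 307 FPKM, lay within the 112 to 364 FPKM of control. In all, 6 of 8 were lower in value and 0 were without overlap (5.83% of all genes were higher and 4.14% lower without overlap), and the median was -0.61 beside 0.01 for all genes. Single libraries moved these differences. Without repopulated replicate 3 that of *Ly6c2* was -0.58 and that of *Lyz2* -0.35. Without control replicate 4 they were -1.64 and -0.93, with *Clec12a* at -1.05 and *Cd52* at 0.29. Without control replicate 1 *Cd52* was at 0.85, *Lyz2* at -0.38 and *Clec12a* at -0.42. None of the 8 passed limma's test without any 1 library (0 called in each case).

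In this experiment *Lyz2* was high in the libraries with high neutrophil transcripts. The sum of the 8 neutrophil markers was 22615, 13762, 2513 and 2103 FPKM in control replicates 1 to 4 and 4573, 2735 and 1267 FPKM in repopulated replicates 1 to 3. *Lyz2*, which neutrophils express, was highest in control replicates 1 and 2 (2924 and 2091 FPKM), and lowest in repopulated replicate 3 (701 FPKM), the library with the lowest neutrophil sum. Deviations from the group means, over 7 libraries that share 2 groups, correlated with those of *S100a8* at r = 0.95 for *Lyz2*, 0.68 to 0.92 for *Ccr2*, *Ly6c2*, *Clec12a*, *Plac8* and *Cd52*, 0.30 for *Klra2* and 0.24 for *Lilra5*. The sum of the border-associated macrophage markers was 134 to 155 FPKM in control and 89.3 to 110.3 FPKM in repopulated libraries. The part of these transcripts in the differences was not tested.

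**Figure D5:**
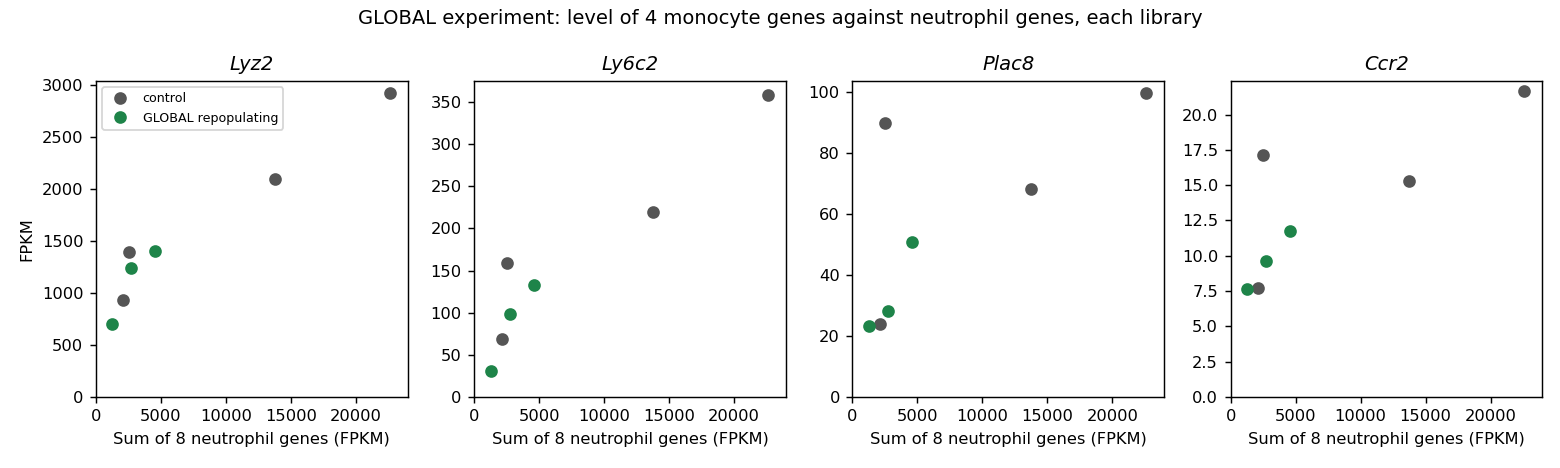
FPKM of 4 monocyte genes against the summed FPKM of 8 neutrophil markers in the 4 control and 3 repopulated libraries of the GLOBAL experiment (linear axes, a point per library). Control libraries spread from 2103 to 22615 FPKM of neutrophil markers and repopulated ones from 1267 to 4573 FPKM, and the *Lyz2* level is highest where that sum is highest.

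The genes most like each of the 8 were found by Pearson's correlation of log2(FPKM + 1) among all genes tested. These libraries share groups and time points, so the values describe the shape of the data and carry no test. Over the 24 libraries of the WM experiment, *Plac8* was most like *F10*, coagulation factor X (r = 0.98), *Ly6c2* was most like *Ltb4r1*, a leukotriene B4 receptor (0.98), and *Klra2* was most like *Napsa*, an aspartic protease (0.94). *Ccr2* came closest to *F13a1*, coagulation factor XIII A (0.89), *Clec12a* to *Gpr141*, an orphan receptor (0.79), and *Lyz2* to *Plbd1* (0.77). *Cd52* came closest to *Ifit3b*, an interferon-induced gene (0.91), and *Lilra5* to *Cd68*, a lysosomal glycoprotein of macrophages (0.91). Among the 8 genes themselves, deviations from the group means correlated with r of 0.24 to 0.88 over the 28 pairs (median 0.71), and over the 7 GLOBAL libraries with r of -0.34 to 0.98 (median 0.75). Libraries of a group that were high in 1 of the genes thus tended to be high in others. Over all 24 libraries of the WM experiment *Lilra5* went apart from the set. Its r with the other genes ran from -0.72 (*Plac8*) and -0.66 (*Ly6c2*) to 0.08 (*Lyz2*). With the microglia markers *Sall1* and *P2ry12* it was 0.73 and 0.70.

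In SVZ tissue the likeness was different in kind. Over the 15 libraries *Lyz2* was most like *Pdgfra*, the receptor that marks oligodendrocyte precursors (r = 0.96), and next like *Ighm* (0.93) and *Cd52* (0.89). *Clec12a* was most like *Tgfa*, transforming growth factor alpha (0.87), and no myeloid gene of the lists was among its closest 3. Deviations from the group means correlated with r of 0.03 to 0.32 over the 3 pairs, so the likeness of *Lyz2* and *Cd52* over all libraries rests mostly on the differences between groups.

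Reads of 2 of the genes may be shared with near-identical copies. Of the 43-base windows of the *Ly6c2* transcript, 40.64% also occur in another gene, mostly *Ly6c1*, a surface antigen of endothelium as well. For *Lyz2* the share is 20.49%, all with *Lyz1*. It is 2.761% for *Ccr2*, 0.2277% for *Klra2* and 0 for *Clec12a*, *Lilra5*, *Plac8* and *Cd52*. With windows of 150 bases, the read length that the labels give, it is 5.795% for *Ly6c2* and 0 for *Lyz2*. With reads of 43 bases the levels of these 2 genes are therefore less certain than those of the other 6. With reads of 150 bases this holds for *Ly6c2* only.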

How the data were processed

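The authors isolated RNA from SVZ tissue or sorted CD11b+CD45int cells. According to the study's methods the cDNA was made with Smart-seq2 and sequenced in paired reads of 43 bases, whereas the labels describe a commercial provider and reads of 150 bases. The submitters' processing notes name STAR, featureCounts, edgeR and limma and the build mm10. The annotation is not given in the sources used here. The authors deposited FPKM values, in 3 tables that were normalized separately, and no counts were used. The submitters' titles put the libraries in groups, and columns were matched to libraries by name. The study's methods give n as the number of mice in a group, and the labels number the libraries without tying them to a mouse.

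Genes at 1 FPKM or more in at least 3 libraries of a table were tested, the cut that the methods give for RPKM (14151 genes in SVZ, 12684 in the WM and 16651 in the GLOBAL experiment). All 8 genes passed in the sorted-cell tables, and all 3 that are listed in the SVZ table passed there. Tests used limma (version 3.58.1, under R version 4.3.3). Values were taken as log2(FPKM + 1), all groups of a table entered 1 fit, the variance could follow a trend with expression, and 2-sided p-values were adjusted over all genes tested by Benjamini-Hochberg, with a threshold of 0.05. The interval of a difference is the 95% interval of the same fit. On simulated data for the SVZ depletion comparison (14101 genes), the WM comparison at 0 hr (12425 genes) and the GLOBAL comparison (16496 genes), this procedure called 199, 192 and 192 of 200 genes that were changed by 2 on the log2 scale, and 8, 9 and 7 unchanged ones. Low FPKM values go in equal steps of 1 read, which gave each library's depth: 5.24 to 10.4 M (mega) reads in the WM, 2.21 to 5.37 M in the GLOBAL and 4.57 to 10.6 M in the SVZ experiment. Reads without molecular identifiers are not independent molecules.

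The 8 genes, the marker lists and the related lists were chosen with earlier results of these data known. The genes named in the text are the 8 genes, genes of those lists, and for each of the 8 the 3 genes with the highest Pearson correlation in a table. Alternatives were a pseudocount of 0.1, no filter, only the groups compared, quantile normalization, the replicate number as a block, and each library left out in turn. The windows shared between transcripts were counted on GENCODE transcripts of mouse, and promoter sequences, found for 7 of the 8 genes, are RefSeq's for GRCm38.p6. The letters of the interferon and NF-κB motifs were shortened after a first search had been seen. In the SVZ table, 25 symbols that had turned into dates were restored from their Entrez numbers. Columns of per-sample values that belong to no library numbered 0.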

Additional observations from a re-analysis of the deposited data

Results flagged for a closer look

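In WM repopulating cells 6 hr after LPS, *Lilra5* was at 23.6 FPKM in replicate 2 and at 7.72, 8.83 and 9.66 FPKM in the other 3 libraries. The gap to the nearest library exceeded Dixon's 95% critical value for 4 samples. Of 57 groups of 4 or more libraries tested in this way 1 was picked out, where chance picks out about 5%. The same library had a neutrophil marker sum of 825 FPKM, beside 432 to 10083 FPKM over the group. Without it the log2 difference of *Lilra5* between WM repopulating and control cells at 6 hr was 0.25 in place of 0.59.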

How the results depend on the processing

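Of the 20 differences that passed the test, 95 of 100 values under the other settings and 422 of 444 values with a library left out kept direction and call, 5 and 22 kept the direction without the call, and 0 reversed. The 5 were *Ccr2* at 6 hr after LPS in WM repopulating cells (adjusted p by limma of 0.0553 with a pseudocount of 0.1, 0.0599 with no filter and 0.0543 after quantile normalization) and *Lyz2* at 24 hr (0.0564 with no filter and 0.0891 after quantile normalization). Quantile normalization also turned differences that had not passed, to 0.0287 for *Clec12a* from 14 day PLX3397 to 5 day recovery, 0.23 for *Lyz2* at 6 hr after LPS in WM repopulating cells and -0.0355 for *Lilra5* in GLOBAL repopulation, which was -0.000625 with a pseudocount of 0.1. Only the groups compared could not be tried for GLOBAL, which has 2 groups. With libraries left out, the number of genes called ranged over 1 to 3 at 24 hr after LPS in WM repopulating cells (1 without WM 0 hr replicate 2 or WM 24 hr replicate 3), and over 0 to 1 for WM repopulating against control cells at 0 hr (1 without control 0 hr replicate 1). Among differences that had not passed, 24 changed sign without a library. Their log2 ranges were -0.23 to 0.31 (*Ccr2*), -0.31 to 0.34 (*Clec12a*) and -0.42 to 0.38 (*Plac8*) for WM repopulating against control cells at 0 hr. At 6 hr they were -0.11 to 0.29 (*Ccr2*), -0.0249 to 0.32 (*Klra2*), -0.13 to 0.23 (*Lyz2*) and -0.23 to 0.25 (*Plac8*), and at 24 hr -0.68 to 0.31 (*Klra2*), -0.11 to 0.33 (*Lilra5*) and -0.76 to 0.20 (*Ly6c2*). After LPS in control they were -0.0186 to 0.54 (*Lyz2*, 6 hr) and -0.25 to 0.40 (*Clec12a*, 24 hr). In WM repopulating cells they were -0.30 to 0.0628 (*Lyz2*, 6 hr), -0.58 to 0.41 (*Klra2*, 24 hr), -0.42 to 0.0298 (*Lilra5*, 24 hr) and -0.13 to 0.83 (*Ly6c2*, 24 hr). The differences between the responses ranged over -0.18 to 0.36 (*Ccr2*), -0.0910 to 0.60 (*Clec12a*), -0.50 to 0.26 (*Ly6c2*) and -0.33 to 0.47 (*Plac8*) at 6 hr and -0.21 to 0.23 (*Lilra5*) at 24 hr. In SVZ tissue the ranges were -0.0223 to 0.23 (*Cd52*, 5 day recovery against control) and -0.12 to 0.11 (*Clec12a*, 5 day recovery against 14 day PLX3397), and in GLOBAL repopulation -0.23 to 0.29 (*Lilra5*). The cause of these changes was not tested.

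With the replicate number as a block, 3 of the 8 genes passed limma's test in GLOBAL repopulation in place of 0 (*Ly6c2* -1.64, adjusted p = 0.0339, *Lyz2* -0.93, adjusted p = 0.0379, and *Plac8* -1.38, adjusted p = 0.0381), among 55 genes in all, and the block changed no other call on the 8 genes. Control replicate 4 has no repopulated library of its number, so that the block takes it out of the difference, and these values equal those without it. It turned *Ccr2* (0.0902) and *Clec12a* (0.0576) for WM repopulating against control cells at 0 hr, *Clec12a* (0.12) at 24 hr after LPS in control and *Lilra5* (-0.11) in GLOBAL repopulation. The numbers do not pair the libraries by the check made, in which 5 of 15 same-numbered pairs in SVZ, 7 of 55 in the WM and 2 of 3 in the GLOBAL experiment deviated together with a correlation over 0.1 (0.0562 to 0.137 in the last). Depth limits *Cd52* in SVZ most, with 0 to 3 reads per depleted library.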
